A study of Mus musculus with 30 samples.

Results

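The tumours of mice that drank water, taken 18 h after oxaliplatin, were compared with those taken at 0 h. The comparison rests on 5 arrays at 18 h (numbered 21 to 25 in the labels) and 5 at 0 h (numbered 1 to 5), which are 10 of the 30 arrays of the series, and on all 19938 genes with 1 symbol on the array. EL4 is a mouse T cell lymphoma line. Its cells were injected under the skin of the flank of mice that were not pre-treated with antibiotics, and 7 days later the mice received 10 mg per kg oxaliplatin into the abdominal cavity. The titles carry the letters WT, and the 0 h tumours were collected at the time of that injection. Total RNA of whole tumours was amplified, labelled with an Affymetrix kit and read on expression arrays. Tumours at 6 h (5 arrays) served as an intermediate time, and tumours of mice given antibiotics for 3 weeks before the graft served as a contrast at 0 and 18 h (5 arrays each).

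Nothing in the labels ties a sample to a single mouse, so each p-value reflects only how far these samples spread, which may be technical. Drug-free tumours at 18 h were not analysed here, so the drug and any other change over those hours cannot be told apart. The sample numbers run in blocks by group, and an effect of that order cannot be told apart from the group either. EL4 is 1 line, and a tumour piece also holds host cells. The T cell antigen receptor chain Cd3e stood at 11.47, 11.39, 11.48, 11.40 and 11.28 at 0 h and at 11.52, 11.23, 11.40, 11.35 and 11.27 at 18 h, on a scale where the median of all rows of an array lay between 7.264 and 7.365 at 0 h. Of 12 T cell markers tested, 2 were called higher and 0 lower at 18 h, and the 2 calls shrank to 0 or 1 without array 1, 2, 3, 4, 21, 22, 23 or 24. In such bulk RNA, fewer cells of a type and less RNA per cell cannot be told apart.

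Oxaliplatin forms platinum adducts and crosslinks on DNA. Such damage stabilises p53, a transcription factor that induces genes of growth arrest, repair and cell death, together with the ligase Mdm2 that degrades it. Damaged cells also slow DNA synthesis and mitosis, and the mRNAs of the replication-dependent histones, which are made in S phase, are destroyed when replication stops. Growth depends in parallel on amino acid supply, which the transcription factor Atf4 helps to regulate through amino acid transporters, synthetic enzymes and tRNA synthetases, and on the production of ribosomes.

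By 18 h 2816 of 19938 genes (14.1%) had changed in limma at an adjusted p under 0.05, the threshold for every call. Of these, 1233 were higher (6.18% of all genes) and 1583 were lower (7.94%). Most changes were small. The median size of a called change was 0.263 on the log2 scale for the genes that were higher and 0.218 for those that were lower, against a median SD of a gene between arrays of 0.0979 at 0 h and 0.111 at 18 h. A change of at least 1.5-fold was found for 99 of the higher and 25 of the lower genes, and one of at least 2-fold for 15 and 3. The 5 arrays at 18 h all lay above the 5 at 0 h for 903 genes (4.53%) and all below them for 1334 (6.69%). Calls were more frequent among genes with high values. Among the 3988 genes with the lowest mean level 0.527% were higher and 0.652% lower, and among the 3988 with the highest the shares were 10.3% and 20.4%. The plot of change against level shows the p53 target genes and the macrophage gene Chil3 at the upper edge, and histone and amino acid genes at the lower edge.

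**Figure D1:**
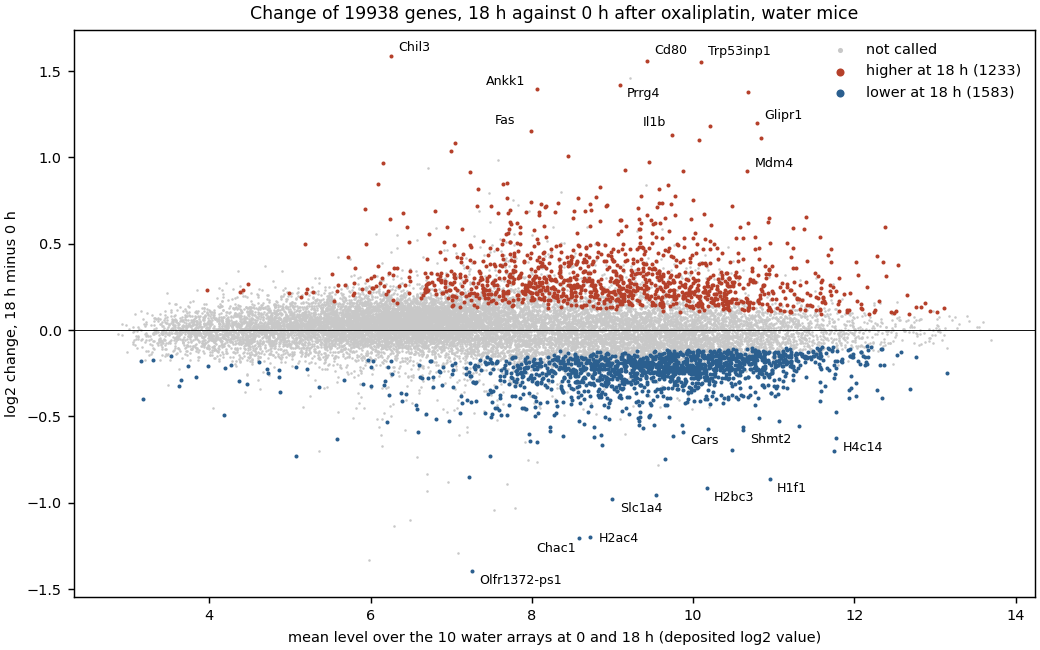
Each point is 1 of 19938 genes, with its mean deposited log2 value over the 10 water arrays on the horizontal axis and its log2 change from 0 to 18 h on the vertical axis. Red points are the 1233 genes called higher, blue points the 1583 called lower, and the labelled genes reach from 1.59 (Chil3) to -1.40 (Olfr1372-ps1).

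Among lists of related genes, p53 targets had the highest share of members called higher and replication-dependent histones the highest share called lower. Of 47 p53 targets tested, 27 were higher and 1 was lower, and the median change of the list was 0.380, against 0.012 over all genes tested. In histones the numbers were 0 higher and 23 lower of 26, with a median of -0.508. After p53 targets, the largest shares called higher were those of MHC class I (50%), Bcl2 family (42.9%), endothelial (41.7%) and lysosomal genes (39.3%). With 1 array left out, the counts of these lists fell from 6, 6, 5 and 11 to as low as 2, 3, 3 and 6. That of p53 targets fell from 27 to 25 at the lowest. After histones, those called lower were largest for tRNA synthetases (70.6%), amino acid and one-carbon synthesis (56.2%), ribosome biogenesis (50%) and mitosis (45.9%). Members of most lists share regulators and pathways, so their calls are not independent of one another. Calls were also more frequent at high levels, and the lists were not set against other genes of like level.

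**Figure D2:**
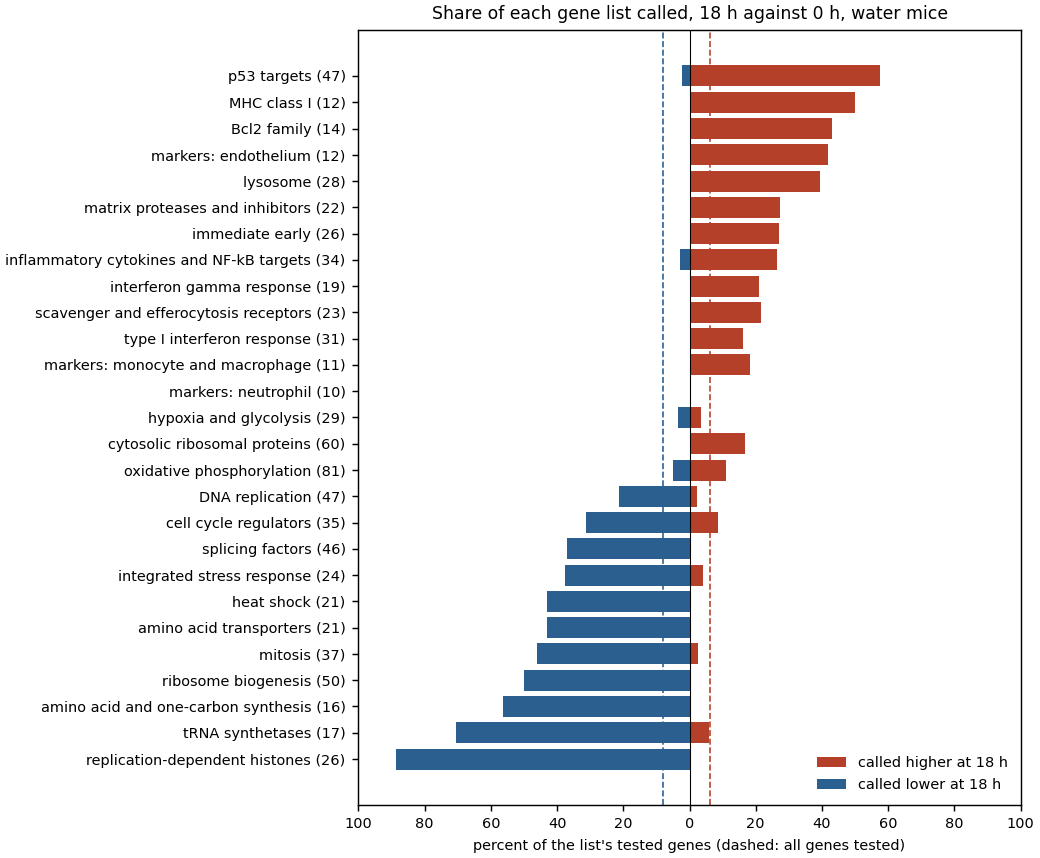
Bars give the percent of the tested genes of each list (number in brackets) called higher (red, to the right) or lower (blue, to the left) at 18 h against 0 h in water mice, 5 arrays each. Dashed lines mark the shares over all genes tested, 6.18% higher and 7.94% lower, and the bars reach 57.4% for p53 targets and 88.5% for histones.

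By role, 3 of the 6 p53 targets of the feedback group were higher. Mdm2, the ligase that degrades p53, read 10.64, 10.55, 10.71, 10.60 and 10.56 at 0 h and 11.18, 11.23, 11.34, 11.28 and 11.30 at 18 h, a rise of 0.65 ± 0.076 (SE) with an adjusted p of 1.77e-06. Ccng1, a cyclin that recruits a phosphatase to Mdm2, read 12.23, 12.06, 12.04, 12.21 and 11.88 and then 12.61, 12.68, 12.67, 12.76 and 12.67, a rise of 0.60 ± 0.085. Neither gene had an 18 h array within its 0 h range. Trp53inp1, a regulator of autophagy and cell death, showed the largest rise of the group. Its values were 9.46, 9.20, 9.42, 9.48 and 9.06 before and 10.78, 10.81, 10.90, 11.05 and 10.85 after, a rise of 1.55 ± 0.18 (adjusted p = 2e-06). Ppm1d, the phosphatase that turns the damage signal off, overlapped between the times (0.10 ± 0.074, adjusted p = 0.478). Mdm4, the partner of Mdm2 that inhibits p53 and is not in the list, was among the 30 largest rises. It read 10.24, 10.21, 10.20, 10.21 and 10.20 at 0 h and 11.09, 11.08, 11.13, 11.24 and 11.13 at 18 h, a rise of 0.92 ± 0.10 (adjusted p = 3.97e-07).

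Of the 8 growth arrest targets 5 were higher. Btg2, an antiproliferative cofactor of mRNA decay, read 9.08, 9.12, 9.34, 9.06 and 9.23 at 0 h and 9.91, 9.79, 10.11, 10.02 and 10.10 at 18 h, and rose by 0.82 ± 0.11. The phosphatase gene Ptprv rose by 0.73 ± 0.10, Gtse1, a microtubule protein that restrains p53, by 0.65 ± 0.12, and the kinase Plk3 by 0.32 ± 0.082. All 18 h arrays of these genes lay above the 0 h arrays. Gadd45a, a damage-induced stress sensor, also had its 18 h arrays above those at 0 h, but its change of 0.17 ± 0.066 did not pass (adjusted p = 0.0968), and array 23 stood apart at 8.46 from the others at 8.28 to 8.29. Cdkn1a and Bax were not analysed here.

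Death targets rose in 11 of 17 cases and fell in 0. Fas, the death receptor, read 7.49, 7.14, 7.51, 7.39 and 7.50 at 0 h and 8.33, 8.63, 8.44, 8.86 and 8.53 at 18 h, a rise of 1.15 ± 0.15 (adjusted p = 4.74e-06). The lowest 18 h array of Fas was well above the highest at 0 h. Zmat3, an RNA-binding protein, rose by 0.93 ± 0.14, and Ddias, which protects damaged cells from apoptosis, by 1.10 ± 0.17. Pidd1, the scaffold that activates caspase 2, rose by 0.72 ± 0.11, Ei24, an endoplasmic reticulum membrane protein, by 0.66 ± 0.071, Phlda3, an inhibitor of Akt, by 0.62 ± 0.10, and the nuclease Aen by 0.38 ± 0.082. Apaf1, the core of the apoptosome, read 9.93, 9.78, 9.92, 9.99 and 9.80 and then 10.32, 10.38, 10.36, 10.51 and 10.48, a rise of 0.53 ± 0.076. Perp (0.18 ± 0.087) and the receptor gene Tnfrsf10b (0.059 ± 0.06) did not pass. In the Bcl2 family 6 of 14 members were higher and 0 lower, and the 6 included proteins that promote death and proteins that prevent it. Without array 4 or 5 the count was 3. Bcl2l11, the BH3-only protein Bim, rose by 0.29 ± 0.077, and Bcl2l1, the survival protein Bcl-xL, by 0.16 ± 0.044. The second call was lost when only the 10 arrays were fitted. Caspase genes did not move one way: Casp1 (0.30 ± 0.076) and Casp8 (0.19 ± 0.04) rose, and Casp2 fell by 0.26 ± 0.046. Mlkl, which executes necroptosis, rose by 0.37 ± 0.10.

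In the repair and metabolism group 8 of 16 targets were higher and 1 was lower. Ercc5, the endonuclease XPG of nucleotide excision repair, read 9.02, 8.90, 8.99, 8.99 and 8.89 at 0 h and 9.65, 9.74, 9.78, 9.78 and 9.75 at 18 h, a rise of 0.78 ± 0.10 (adjusted p = 3.13e-06). Sesn2, a sensor that restrains mTORC1, rose by 0.84 ± 0.16, whereas its relative Sesn1 overlapped between the times (-0.047 ± 0.08). Slc19a2, a thiamine transporter, rose by 0.72 ± 0.12, Ephx1, an epoxide hydrolase, by 0.54 ± 0.10, the nucleotide kinase Ak1 by 0.56 ± 0.13 and the phosphatase Ptpn14 by 0.50 ± 0.077. Polk, a translesion polymerase, rose by 0.47 ± 0.086. Polh, the polymerase that copies past platinum adducts, was the member that fell. It read 9.68, 9.60, 9.71, 9.80 and 9.67 at 0 h and 9.43, 9.50, 9.37, 9.54 and 9.47 at 18 h, a fall of 0.23 ± 0.058 (adjusted p = 0.00645). Cd80, a costimulatory ligand of T cells and a listed p53 target, had the second largest rise of all separated genes. Its arrays read 8.82, 8.50, 8.65, 8.86 and 8.42 at 0 h and 10.09, 10.08, 10.26, 10.32 and 10.29 at 18 h, a difference of 1.56 ± 0.17, or 2.95-fold (adjusted p = 7.4e-07). Rps27l, a ribosomal protein paralogue induced by p53, led the small rises among cytosolic ribosomal protein genes, at 0.31 ± 0.048.

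**Figure D3:**
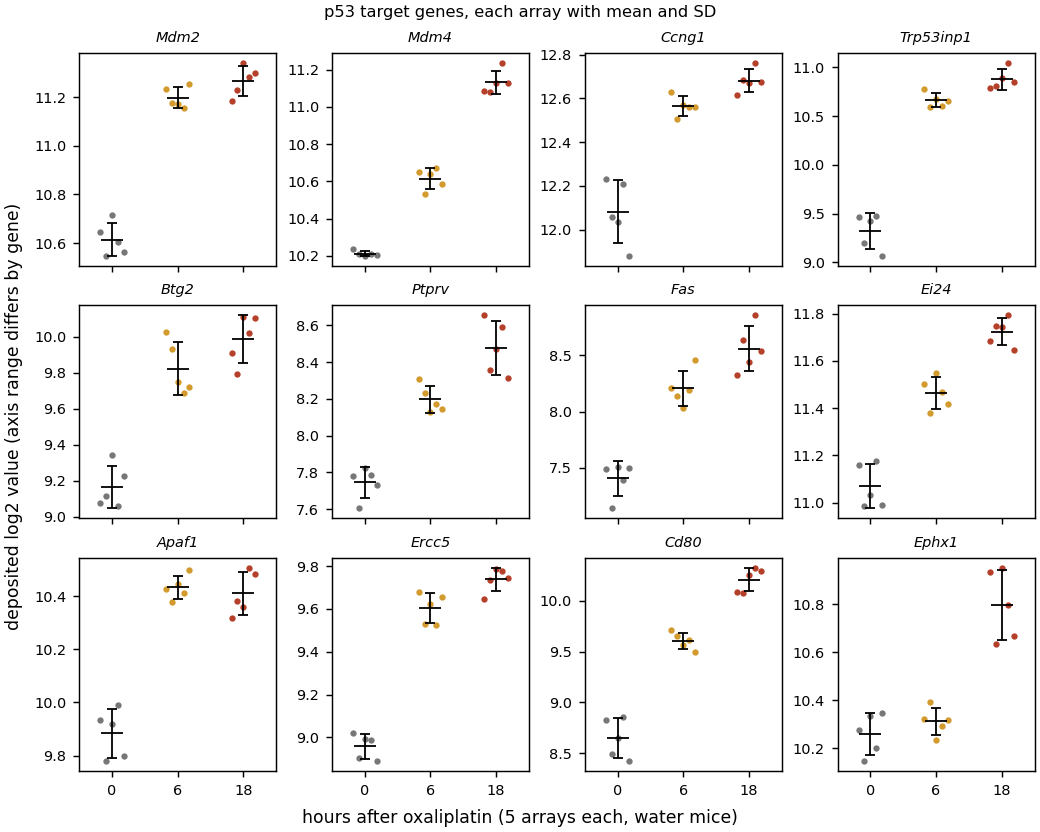
Points are the deposited log2 values of 12 genes on the 5 water arrays at 0, 6 and 18 h after oxaliplatin, and bars are means and SDs. In all 12 panels the 5 arrays at 18 h lie above the 5 at 0 h, with rises from 0.53 (Apaf1) to 1.56 (Cd80).

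Outside the lists, several of the 30 largest rises encode proteins of unlike function. Prrg4, a transmembrane Gla protein, read 8.66, 8.20, 8.44, 8.53 and 8.05 at 0 h and 9.63, 9.71, 9.84, 10.01 and 9.81 at 18 h, and rose by 1.42 ± 0.19. Ankk1, a receptor-interacting kinase relative, rose by 1.40 ± 0.16, with array 3 apart from the other 0 h arrays at 7.64 against 7.22 to 7.34. Glipr1 rose by 1.20 ± 0.15, the D-glutamate cyclase Dglucy by 1.18 ± 0.15, the phosphatase Ptp4a3 by 1.11 ± 0.13 and the ubiquitin ligase Trim7 by 0.92 ± 0.10. Lpin1, a phosphatidate phosphatase, rose by 0.83 ± 0.14. That their 18 h arrays lay above the 0 h arrays was a condition for entry among the 30. The uncharacterised 1700007K13Rik read 6.47, 6.54, 6.88, 6.43 and 6.05 at 0 h and 7.32, 7.43, 7.72, 7.98 and 7.12 at 18 h (1.04 ± 0.15), and 5430427O19Rik rose by 0.76 ± 0.13. Of 19 genes of platinum transport and detoxification 3 were higher (15.8%, against 6.18% of all genes) and 0 lower. These were the efflux pumps Abcb1b (0.72 ± 0.10) and Abcb1a (0.45 ± 0.075) and the copper transporter Slc31a2 (0.33 ± 0.06).

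Replication-dependent histone genes fell almost throughout the list, and their promoters are shown because the members moved together. Of 26 tested, 23 were lower, all 23 of them with every 18 h array below every 0 h array (6.69% of all genes). Of 22 with a RefSeq promoter window, from 250 bases before to 50 after the start, 19 held the CCAAT box (the letters CCAAT on either strand), or 86.4%, against 41.7% of 15614 tested genes with a window. Among the 21 of these 22 that were called lower, 18 held it. Windows of some neighbouring genes overlap, such as those of H2ac8 and H2bc8 and those of H2ac1 and H2bc1. The same letters then count for both genes, so the windows are not all separate promoters. The box was as frequent in the unfolded protein response list, of which 3 of 22 genes were lower: 17 of its 19 windows held it (89.5%), and so did 16 of the 17 of uncalled genes (94.1%). Elements for p53, NF-kB and E2F were searched as well and are not printed. A full p53 site was found in 0 of 38 p53 targets. It was found in only 6 of 15614 tested genes with a window (0.0384%), so its absence does not set the list apart. The NF-kB element was found in 3 of 8 inflammatory genes called higher and 9 of 19 not called. Its share was 46.4% in that whole list and 20.7% in the tested genes with a window. The E2F element was found in 4 of 9 replication genes called lower and 10 of 29 not called. Of the whole replication list 38.5% held it, against 3.48% of the tested genes with a window. Stretches of 90 bases that lie before the start are given below for 5 of the histone genes with the largest falls, on the gene's own strand in the RefSeq build GRCm38.p6, with the CCAAT letters of either strand in capitals. H3c15, which fell more than H2bc14, is not shown. Its box lies after the start, at bases 14 to 18, and is counted among the 19. A match is a description of the letters and not of binding.
H2ac4 (chr13:23750990-23751079, plus strand): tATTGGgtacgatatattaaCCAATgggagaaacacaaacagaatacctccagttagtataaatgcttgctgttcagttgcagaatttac
H2bc3 (chr13:23746644-23746733, plus strand): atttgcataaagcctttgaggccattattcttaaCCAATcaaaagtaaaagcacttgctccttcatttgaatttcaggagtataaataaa
H1f1 (chr13:23763578-23763667, plus strand): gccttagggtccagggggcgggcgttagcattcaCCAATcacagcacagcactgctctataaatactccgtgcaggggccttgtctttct
H4c3 (chr13:23698515-23698604, minus strand): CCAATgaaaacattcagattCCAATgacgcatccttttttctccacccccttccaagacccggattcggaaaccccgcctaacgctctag
H2bc14 (chr13:21721954-21722043, plus strand): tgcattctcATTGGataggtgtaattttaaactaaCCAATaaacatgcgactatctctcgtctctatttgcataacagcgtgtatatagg

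The fall was shared by genes of all 4 core histones and of the linker histone. H2ac4, a histone H2A gene, read 9.30, 9.23, 9.17, 9.53 and 9.36 at 0 h and 7.93, 8.09, 7.88, 8.38 and 8.32 at 18 h, a fall of 1.20 ± 0.12 (adjusted p = 3.74e-07), or 2.29-fold. H2bc3, of histone H2B, read 10.60, 10.70, 10.61, 10.68 and 10.54 and then 9.75, 9.70, 9.65, 9.77 and 9.69, a fall of 0.92 ± 0.094. H1f1, a linker histone, read 11.39, 11.26, 11.46, 11.45 and 11.34 and then 10.61, 10.50, 10.57, 10.46 and 10.43, a fall of 0.86 ± 0.11. In each of the 3 genes the lowest 0 h array was well above the highest 18 h array. H4c3, of histone H4, fell by 0.75 ± 0.09, H3c15, of histone H3, by 0.73 ± 0.18, H2bc14 by 0.70 ± 0.083, H4c14 by 0.63 ± 0.079, H2bc18 by 0.56 ± 0.067 and H4c6 by 0.55 ± 0.072. Another 3 rows among the 30 largest falls carry histone names outside the list, namely H1f6 (-0.85 ± 0.12), H4f16 (-0.70 ± 0.10) and H2bu1-ps (-0.62 ± 0.089). The 3 list members that were not called were H1f2 (-0.14 ± 0.12), H3c7 (-0.25 ± 0.11) and H2bc4 (0.15 ± 0.14). Several histone genes are nearly identical in sequence, and array probes may read more than 1 of them, so the members are not independent measurements. For list means per array, here and below, each gene was centred on its own mean over the 10 water arrays at 0 and 18 h. This centring by itself gives the averages of the 2 groups opposite signs. The mean of the 26 members lay between 0.20 and 0.31 on the 0 h arrays and between -0.29 and -0.24 on the 18 h arrays.

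Genes of DNA synthesis and mitosis fell in part. Of 47 DNA replication genes 10 were lower (21.3%) and 1 higher (median -0.097). Of 37 mitosis genes 17 were lower (45.9%) and 1 higher (median -0.135). Over all genes 7.94% were lower, and among the 3988 genes with the highest level 20.4%, which is near the share of the replication list. The single mitotic rise was lost in 7 of the 10 fits that left out 1 array each. Orc1, which marks origins, read 9.08, 9.07, 9.15, 9.20 and 9.00 at 0 h and 8.72, 8.84, 8.63, 8.95 and 8.83 at 18 h, a fall of 0.31 ± 0.059. Cdc6, which loads the helicase, fell by 0.30 ± 0.062, the helicase factor Gins1 by 0.30 ± 0.075, the polymerase subunit Pold2 by 0.26 ± 0.044 and the helicase subunit Mcm3 by 0.18 ± 0.036. Pcna, the sliding clamp, overlapped between the times (-0.0096 ± 0.038). Rfc3, a clamp loader subunit, was the member that rose, by 0.19 ± 0.065, and it kept its call in 3 of those 10 fits (adjusted p from 0.0241 to 0.132). The Rfc3 call was also lost with array medians subtracted and when only the 10 arrays were fitted. Among mitotic genes, Cenpf, a kinetochore protein, read 9.51, 9.38, 9.57, 9.64 and 9.45 and then 9.18, 9.19, 9.18, 9.24 and 9.16, a fall of 0.32 ± 0.068. Knl1, a kinetochore scaffold, fell by 0.28 ± 0.057, the kinase Plk1 by 0.22 ± 0.049 and the proliferation marker Mki67 by 0.19 ± 0.04. Cdk1, the mitotic kinase, overlapped between the times (0.018 ± 0.038).

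In the regulators of the cycle, 11 of 35 were lower and 3 higher, and 6 of the 8 E2F genes were lower. E2f8, a repressive E2F, read 10.24, 10.27, 10.43, 10.35 and 10.43 at 0 h and 9.84, 10.03, 10.03, 9.92 and 10.00 at 18 h, a fall of 0.38 ± 0.058, and the activator E2f3 fell by 0.31 ± 0.083. The checkpoint kinase Chek1 read 10.80, 10.74, 10.74, 10.92 and 10.70 and then 10.35, 10.40, 10.44, 10.46 and 10.39, a fall of 0.37 ± 0.071, and Wee1, which holds Cdk1 inactive, fell by 0.34 ± 0.046. Fbxo5, the inhibitor of the anaphase-promoting complex, fell most among the named cycle genes, from 10.05, 10.07, 10.19, 10.23 and 10.14 to 9.56, 9.58, 9.58, 9.62 and 9.61 (-0.55 ± 0.071, adjusted p = 5.17e-06). The inhibitors Cdkn2b (0.35 ± 0.076) and Rbl2 (0.29 ± 0.073) rose. In the repair of crosslinks and adducts 4 of 41 genes were higher and 9 lower (22%, against 20.4% of the 3988 genes with the highest level). The 9 became 4, 5 and 5 without arrays 4, 22 and 23. Ercc5 and Polk were among the 4 that were higher. Besides these, Rad51d, a recombination mediator, rose by 0.34 ± 0.059 and the translesion polymerase Rev1 by 0.26 ± 0.058. Rad51c, a relative of Rad51d, fell by 0.31 ± 0.078, Ercc1, a subunit of the other incision nuclease, by 0.24 ± 0.05, and Usp1, which removes ubiquitin from Fancd2, by 0.26 ± 0.056.

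Genes of amino acid supply formed the next large group of falls, and a promoter motif known from Atf4 targets is shown because their members moved together. Of 24 integrated stress response genes 9 were lower and 1 higher. The other lists gave 9 lower and 0 higher of 21 amino acid transporters, 9 lower and 0 higher of 16 enzymes of amino acid and one-carbon synthesis, and 12 lower and 1 higher of 17 tRNA synthetases. The C/EBP-ATF composite element was searched as TGATGNAA on both strands, which reads TTNCATCA on the other strand. It was found in 3.62% of 15614 tested genes with a window, in 16 of 61 genes of the 4 lists (26.2%) and in 11 of the 32 of them called lower (34.4%). It was also found in 5 of 27 that were not called (18.5%). The lists hold genes that were compiled as Atf4 targets, so these shares describe the lists. Of the 11, Slc7a7 held the element before the start and is not shown. Another 6 with the element before the start are shown in stretches of 60 bases on the gene's own strand. They come from RefSeq build GRCm38.p6, with the element in capitals.
Chac1 (chr2:119351029-119351088, plus strand): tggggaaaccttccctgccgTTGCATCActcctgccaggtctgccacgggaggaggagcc
Herpud1 (chr8:94386297-94386356, plus strand): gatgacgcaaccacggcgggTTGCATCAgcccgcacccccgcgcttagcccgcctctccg
Asns (chr6:7693210-7693269, minus strand): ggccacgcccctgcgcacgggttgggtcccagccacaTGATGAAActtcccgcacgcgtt
Got1 (chr19:43524668-43524727, minus strand): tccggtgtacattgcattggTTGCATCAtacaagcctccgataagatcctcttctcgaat
Gars (chr6:55037941-55038000, plus strand): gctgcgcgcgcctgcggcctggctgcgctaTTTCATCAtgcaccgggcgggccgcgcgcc
Tars (chr15:11399659-11399718, minus strand): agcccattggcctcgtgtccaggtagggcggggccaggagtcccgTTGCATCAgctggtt

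Chac1, which degrades glutathione, fell most of these. It read 9.06, 9.60, 9.22, 8.99 and 9.07 at 0 h and 8.01, 7.97, 8.03, 7.93 and 7.98 at 18 h, a fall of 1.20 ± 0.17 (adjusted p = 1.6e-05), or 2.30-fold, and its 18 h arrays spread over a narrower range than those at 0 h. Atf4 itself read 9.61, 9.66, 9.67, 9.58 and 9.55 and then 9.27, 9.17, 9.29, 9.20 and 9.25, a fall of 0.38 ± 0.044 (adjusted p = 1.6e-06). Its partner Cebpg fell by 0.30 ± 0.071. Among the targets, Trib3, a pseudokinase, fell by 0.64 ± 0.15, Eif4ebp1, an inhibitor of cap-dependent translation, by 0.40 ± 0.071, Herpud1, a factor of endoplasmic reticulum degradation, by 0.30 ± 0.065 and Asns, asparagine synthetase, by 0.16 ± 0.042. Sesn2 was the 1 member that rose. In the unfolded protein response 3 of 22 genes were lower and 0 higher, namely Herpud1, the sensor Ern1 (-0.30 ± 0.065) and the chaperone Hyou1 (-0.21 ± 0.05).

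Slc1a4, a transporter of alanine and serine, read 9.42, 9.73, 9.53, 9.41 and 9.35 at 0 h and 8.58, 8.48, 8.54, 8.54 and 8.41 at 18 h, a fall of 0.98 ± 0.10 (adjusted p = 3.49e-07). Slc6a9, the glycine transporter, read 10.00, 10.28, 9.97, 9.90 and 9.95 and then 9.18, 8.99, 9.17, 8.95 and 9.03, a fall of 0.96 ± 0.13. Both genes dropped on all 18 h arrays below their whole 0 h range. Slc7a1, which carries arginine and lysine, fell by 0.51 ± 0.073, the glutamine carrier Slc38a2 by 0.39 ± 0.052, and the 2 chains of the large neutral amino acid exchanger, Slc7a5 and Slc3a2, by 0.35 ± 0.068 and 0.20 ± 0.044. The cystine carrier Slc7a11 varied widely at 18 h (8.58, 9.54, 8.72, 8.99 and 9.36) and did not pass (-0.44 ± 0.21).

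In synthesis, Shmt2, the mitochondrial enzyme that makes glycine from serine, read 10.91, 10.91, 10.95, 10.85 and 10.91 at 0 h and 10.26, 10.37, 10.40, 10.33 and 10.26 at 18 h, a fall of 0.58 ± 0.057 (adjusted p = 3.49e-07). Its cytosolic relative Shmt1 fell by 0.34 ± 0.06, the mitochondrial folate enzyme Mthfd2 by 0.39 ± 0.082, the alanine transaminase Gpt2 by 0.65 ± 0.10, the proline enzyme Aldh18a1 by 0.30 ± 0.066, the aspartate transaminase Got1 by 0.22 ± 0.045 and the serine enzyme Psat1 by 0.20 ± 0.047. Phgdh, the first enzyme of serine synthesis, overlapped between the times (-0.13 ± 0.068). Cars, which charges the cysteine tRNA, read 10.05, 10.30, 10.27, 10.10 and 10.11 and then 9.59, 9.61, 9.58, 9.53 and 9.59, the largest fall of its list at 0.59 ± 0.063. The synthetases for tyrosine (Yars, 0.44 ± 0.049), isoleucine (Iars, 0.41 ± 0.051), threonine (Tars, 0.38 ± 0.068), methionine (Mars1, 0.33 ± 0.057) and glycine (Gars, 0.30 ± 0.047) all fell by the sizes given. Qars, for glutamine, was the synthetase that rose, by 0.14 ± 0.042 (adjusted p = 0.027), and that call was lost without array 2, 5 or 22 (adjusted p up to 0.0811), with array medians subtracted (0.127) and when only the 10 arrays were fitted (0.0731).

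**Figure D4:**
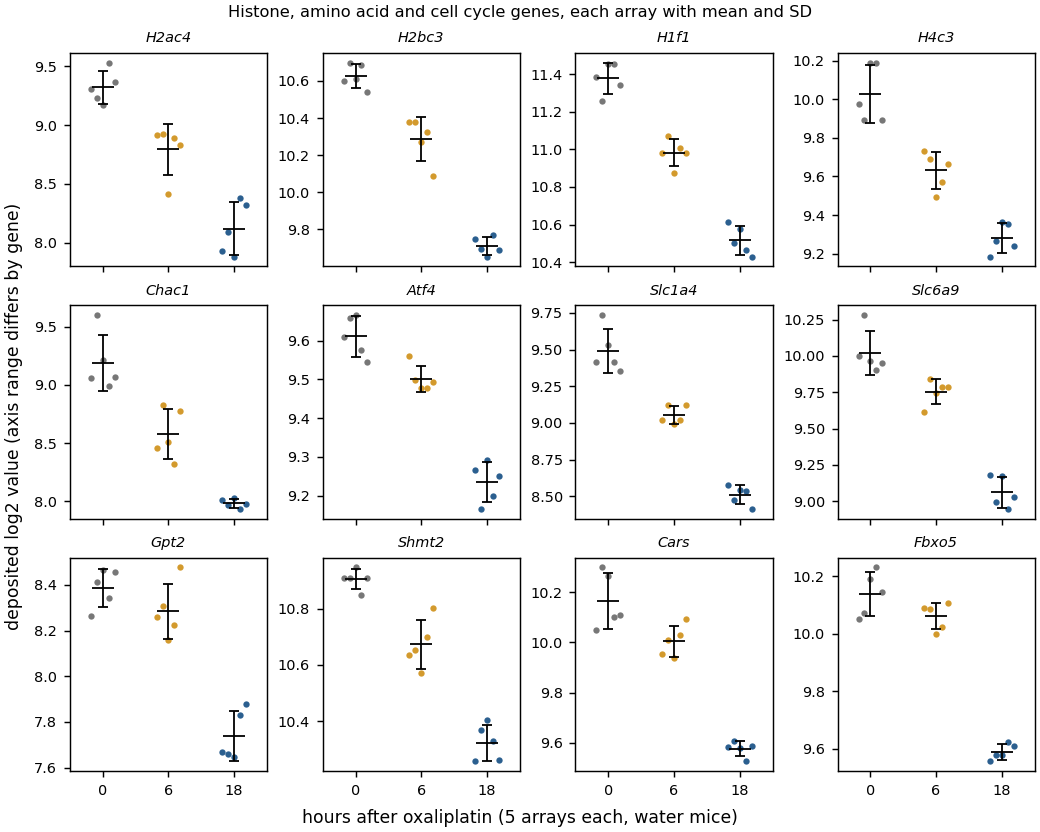
Points are the deposited log2 values of 12 genes of histones, amino acid supply and the cell cycle on the 5 water arrays at 0, 6 and 18 h, and bars are means and SDs. In all 12 panels every 18 h array lies below every 0 h array, with falls from 0.38 (Atf4) to 1.20 (Chac1 and H2ac4).

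Genes that build ribosomes fell in 25 of 50 cases and rose in 0, with a median of -0.132, and 14 fell when only the 10 arrays were fitted. Bysl, a small subunit assembly factor, read 9.26, 9.26, 9.32, 9.36 and 9.20 at 0 h and 8.96, 8.91, 8.91, 8.89 and 8.86 at 18 h, a fall of 0.37 ± 0.054. Nop58 and Fbl, core proteins of the particles that methylate ribosomal RNA, fell by 0.32 ± 0.058 and 0.27 ± 0.039, Rrp9, of the particle that cleaves its precursor, by 0.28 ± 0.049, Polr1b, a subunit of RNA polymerase I, by 0.27 ± 0.051 and the nucleolar chaperone Npm1 by 0.20 ± 0.047. The Fbl call was lost with its lowest row. Polr3g, a subunit of RNA polymerase III, fell by 0.56 ± 0.10. In the list of Myc and nucleotide synthesis 9 of 25 genes were lower and 1 was higher, and the latter count became 0 or 2 without array 1, 2, 3, 4, 22, 23, 24 or 25. Myc, the growth regulator, read 11.79, 11.75, 11.82, 11.81 and 11.72 and then 11.62, 11.58, 11.57, 11.55 and 11.46, a fall of 0.22 ± 0.047, and Ppat, the first enzyme of purine synthesis, fell by 0.27 ± 0.065. Odc1, of polyamine synthesis, did not pass (-0.13 ± 0.053). Of 60 cytosolic ribosomal proteins 10 were higher (16.7%) and 0 lower, at a median of 0.043. Over all genes 6.18% were higher, and among the 3988 genes with the highest level 10.3%. The cytosolic count was 2 without array 1 and 5 without array 2, 21, 22 or 23, and 4 with array medians subtracted. Of 77 mitochondrial ribosomal proteins 13 were lower (16.9%) and 1 higher (Mrps21 -0.38 ± 0.082, Mrps34 0.25 ± 0.058). Among the 3988 genes with the highest level 20.4% were lower. The mitochondrial counts were 8 lower without array 3 or 21, and 2 and 3 higher without arrays 3 and 25.

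Splicing factors fell in 17 of 46 cases and rose in 0, and 11 fell when only the 10 arrays were fitted. Sf3a2, of the particle that recognises the branch point, read 10.58, 10.60, 10.59, 10.60 and 10.49 at 0 h and 10.20, 10.18, 10.21, 10.19 and 10.12 at 18 h, a fall of 0.39 ± 0.047. Its partner Sf3b4 fell by 0.32 ± 0.051, the core protein Snrpb by 0.37 ± 0.068 and the regulator Srsf1 by 0.25 ± 0.048, and the Sf3b4 call was lost with its lowest row. Translation factors were lower in 15 of 61 cases (24.6%) and higher in 4, and the 15 became 9 without array 4. Among the 3988 genes with the highest level 20.4% were lower. Eif4ebp2, a repressor of the cap-binding protein, fell by 0.39 ± 0.051. Heat shock genes were lower in 9 of 21 cases (5 and 4 without arrays 4 and 21) and higher in 0, with the chaperone Hsph1 at -0.39 ± 0.061.

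The cluster of Mir17hg, a set of miRNAs cut from 1 transcript that Myc activates and that promotes lymphoma growth, was lower in 4 of the 6 rows named here. The 2 mature miRNAs below come from its most reduced members. They are printed from RefSeq (GRCm38.p6, plus strand) with the seed, bases 2 to 8, in capitals, and the seeds differ.
mmu-miR-18a-5p (chr14:115043867-115043889): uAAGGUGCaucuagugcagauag
mmu-miR-19a-3p (chr14:115044048-115044070): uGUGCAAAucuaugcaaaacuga
A probe set of a miRNA gene can read the hairpin or its precursor as well as the mature miRNA. The host gene Mir17hg read 9.51, 9.44, 9.40, 9.41 and 9.46 at 0 h and 8.84, 8.96, 8.99, 9.08 and 8.94 at 18 h, a fall of 0.48 ± 0.091. Mir18 fell by 0.50 ± 0.11, Mir19a by 0.56 ± 0.15 and Mir19b-1 by 0.44 ± 0.15. Without array 21 the adjusted p of Mir19a was 0.0547, and Mir19b-1 (adjusted p = 0.0492) kept its call in 1 of the 10 fits that left out 1 array and lost it with a trend and robust prior and in an ordinary linear model. Mir17 (-0.25 ± 0.10) and Mir20a (-0.48 ± 0.20) did not pass. Of 300 miRNA genes tested 3 were higher and 12 lower.

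Inflammatory genes rose in part. Of 34 inflammatory cytokines and NF-kB targets 9 were higher and 1 lower (median 0.123). Il1b, the fever-inducing cytokine, read 8.96, 9.06, 9.08, 9.57 and 9.20 at 0 h and 9.77, 10.12, 10.46, 10.32 and 10.86 at 18 h, a rise of 1.13 ± 0.24 (adjusted p = 0.00138). Tnf, another early cytokine, read 9.13, 9.15, 9.17, 9.18 and 9.18 and then 9.33, 9.31, 9.39, 9.51 and 9.42, a rise of 0.23 ± 0.064. Il6 read 5.74, 5.51, 5.54, 5.67 and 5.89 and then 5.70, 6.59, 6.71, 6.90 and 7.31, so that array 21 stayed within the 0 h range. Its rise of 0.97 ± 0.31 (adjusted p = 0.0351) was called in 2 of the 10 fits without 1 array (adjusted p from 0.00936 to 0.104), and not in an ordinary linear model. For 2 adhesion molecules that leukocytes bind on vessels, no 18 h array lay within the 0 h range. Icam1 read 8.68, 8.69, 8.87, 8.75 and 8.94 and then 9.35, 9.44, 9.36, 9.59 and 9.37, a rise of 0.64 ± 0.065 (adjusted p = 3.97e-07), and Vcam1 rose by 0.85 ± 0.14. Ptgs2, the inducible prostaglandin synthase, ranged from 8.27 to 9.74 at 0 h and did not pass (0.84 ± 0.35). Tgfb1, which restrains immune cells, was the member that fell, by 0.23 ± 0.051.

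Among 34 chemokine ligands 4 were higher (11.8%) and 0 lower, and the 4 became 2 without array 4 or 25. Over all genes 6.18% were higher, and among the 3988 genes with the highest level 10.3%. Ccl2, which attracts monocytes, read 9.08, 9.25, 9.61, 9.32 and 9.78 at 0 h and 10.33, 10.13, 10.18, 10.55 and 10.46 at 18 h, a rise of 0.92 ± 0.16, and the related Ccl7 rose by 0.76 ± 0.15. Immediate early genes were higher in 7 of 26 cases (4 without array 2, 4 or 25) and lower in 0. Fos read 6.96, 6.88, 6.81, 6.87 and 7.07 and then 7.50, 7.51, 7.82, 7.83 and 8.03, a rise of 0.82 ± 0.15, Egr1 rose by 0.62 ± 0.17, and Ccn1, a matricellular target of Hippo signalling, by 0.64 ± 0.16. The list means of inflammatory and immediate early genes were highest on array 25 (0.32 for each), which also had the highest means of the neutrophil (0.41) and macrophage (0.37) markers at 18 h. Over the 5 arrays the neutrophil mean ranged from -0.16 to -0.05 at 0 h and from -0.10 to 0.41 at 18 h, with 0 of 10 markers called in limma (2 at an unadjusted p under 0.05). The part of these cell markers in the inflammatory changes was not tested.

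Interferon-responsive genes varied between the 18 h arrays. Of 19 interferon gamma response genes 4 were higher and 0 lower, although the median change was 0.505. Leaving out array 23 raised the count to 10, and leaving out array 1, 2, 3, 4, 5, 22 or 24 reduced it to 2. The mean of the list was 0.89 on array 24 and 0.49 on array 22, but -0.39 on array 23, which lay within the 0 h range of -0.42 to -0.07. Cxcl9, a chemokine induced by interferon gamma, read 9.77, 10.54, 8.02, 11.49 and 9.88 at 18 h and did not pass (1.46 ± 0.55, adjusted p = 0.0789), and neither did the related Cxcl10 (0.69 ± 0.41). Gbp5, a guanylate-binding protein, was called (1.08 ± 0.37, adjusted p = 0.0487) but in only 2 of the 10 fits that left out 1 array, with an adjusted p up to 0.153. Its call was also lost with array medians subtracted, when only the 10 arrays were fitted, after quantile normalisation, with a trend and robust prior and in an ordinary linear model. Cd274, the checkpoint ligand PD-L1, held its call in every such fit. It read 9.10, 9.09, 9.04, 9.04 and 9.20 at 0 h and 9.41, 9.62, 9.24, 9.93 and 9.78 at 18 h, a rise of 0.50 ± 0.13. Markers of NK and cytotoxic cells, which can secrete interferon gamma, had 0 of 10 members called in limma (5 at an unadjusted p under 0.05, and 2 called without array 23). Their mean ranged from -0.22 to 0.03 at 0 h, and at 18 h it was also highest on array 24 (0.53) and lowest on array 23 (-0.19). Their part in the interferon values was not tested.

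Type I interferon genes were higher in 5 of 31 cases (16.1%, against 6.18% of all genes) and lower in 0. That count was 3 without array 1, 2, 3, 4 or 25 and 2 without array 24. Bst2, the tether that holds virus particles at the cell surface, read 9.89, 9.85, 9.97, 9.87 and 9.88 at 0 h and 10.49, 10.30, 10.41, 10.34 and 10.29 at 18 h, a rise of 0.47 ± 0.046 (adjusted p = 3.49e-07), and Ifi27 rose by 0.31 ± 0.054. Both genes were tight on the 18 h arrays, array 23 included. In MHC class I presentation 6 of 12 genes were higher and 0 lower, and the 6 became 3, 2 and 2 without arrays 2, 4 and 24, and 3 with array medians subtracted. The peptide transporter subunit Tap2 rose by 0.20 ± 0.046, and outside that list the class I transactivator Nlrc5 rose by 0.27 ± 0.074 and the proteasome activator subunit Psme2 by 0.31 ± 0.065. Among 27 costimulatory and checkpoint genes 5 were higher and 0 lower, with Tnfsf4, the ligand of OX40, at 0.85 ± 0.14 and the receptor Tnfrsf18 at 0.62 ± 0.092 beside Cd80. The purine receptors P2rx7, which opens on extracellular ATP, and P2ry2 rose by 0.58 ± 0.093 and 0.31 ± 0.073.

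Chil3, a chitinase-like protein secreted by macrophages, had the largest rise of all separated genes. It read 4.76, 5.43, 5.50, 5.45 and 6.14 at 0 h and 7.45, 7.51, 6.59, 6.82 and 6.86 at 18 h, a rise of 1.59 ± 0.31 (adjusted p = 0.000674), or 3.01-fold. Its 0 h values all lay below the median of all rows of an array (7.264 to 7.365 at 0 h), so the fold starts from low values. Few genes of macrophage identity were called. Of 11 monocyte and macrophage markers 2 were higher (1 and 0 without arrays 2 and 4) and 0 lower, and Adgre1, which encodes F4/80, overlapped between the times (-0.0093 ± 0.16). The mean of these markers ranged from -0.30 to 0.19 at 0 h and from -0.08 to 0.37 at 18 h, and its part in the results on macrophage genes was not tested. Lysosomal genes were higher in 11 of 28 cases and lower in 0. That count was 7, 6 and 6 without arrays 1, 2 and 4, 7 and 6 without arrays 24 and 25, and 7 with array medians subtracted. Ctsd, an aspartic protease, read 11.34, 11.27, 11.54, 11.13 and 11.45 and then 11.75, 11.57, 11.68, 11.73 and 11.67, a rise of 0.33 ± 0.077, and the proton pump subunit Atp6v0d2 rose by 0.70 ± 0.13. Of 23 receptors for scavenging and for the uptake of dead cells 5 were higher and 0 lower. Msr1, the scavenger receptor A, rose by 0.59 ± 0.13, Cd36 by 0.76 ± 0.19, and Mfge8, which bridges dying cells to phagocytes, from 8.89, 8.70, 8.87, 8.70 and 8.65 to 9.32, 9.22, 9.11, 9.32 and 9.08 (0.45 ± 0.064). Of 13 genes of alternatively activated macrophages 4 were higher, Chil3 among them. The lipid receptor Trem2 rose by 0.28 ± 0.068, and Gpnmb by 0.60 ± 0.16, a call lost with array weights. In the phagocyte oxidase the small subunits Cyba (0.31 ± 0.055) and Ncf4 (0.26 ± 0.062) rose, and the catalytic subunit Cybb did not pass (0.37 ± 0.23). Complement genes were higher in 2 of 20 cases (10%, against 6.18% of all genes), among them the protease C1ra (0.41 ± 0.10). Without array 4 the complement count was 1. Isg20, an exonuclease, rose by 0.74 ± 0.13, Slamf8, a receptor of myeloid cells, by 0.84 ± 0.21, with array 24 at 8.93 against 7.70 to 8.16, and Phf11a by 0.74 ± 0.19.

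**Figure D5:**
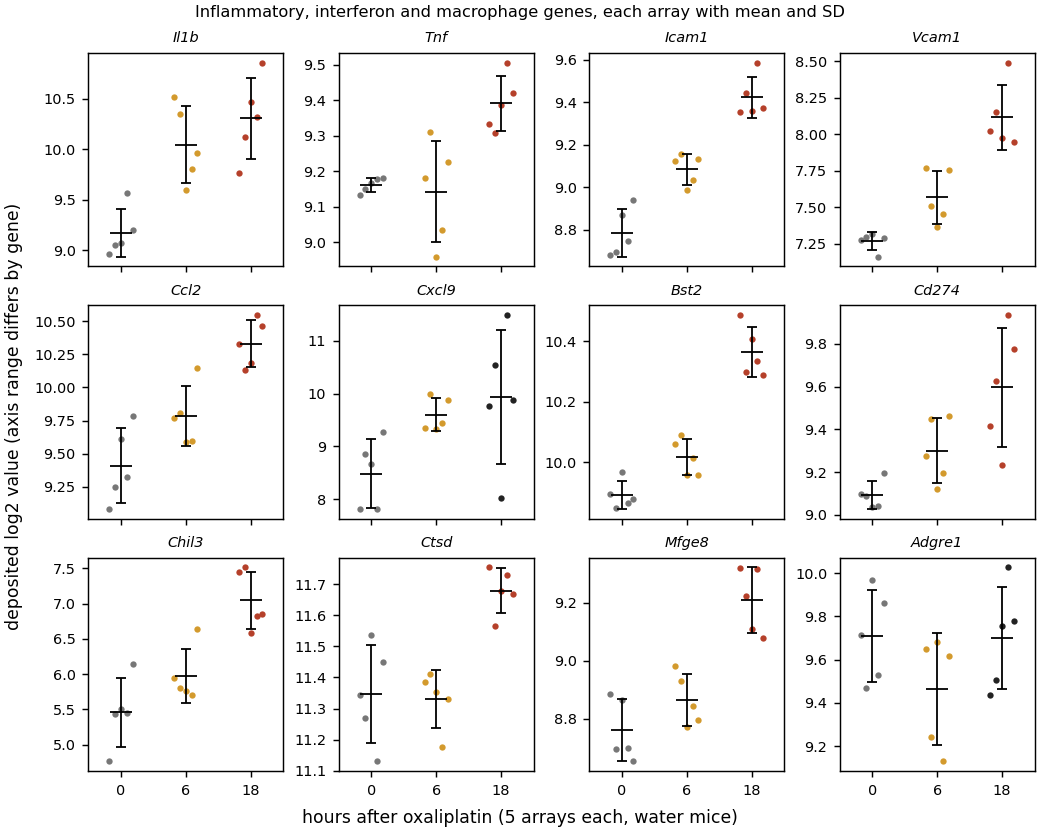
Points are the deposited log2 values of 12 genes of inflammation, interferon response and macrophages on the 5 water arrays at 0, 6 and 18 h, and bars are means and SDs. Dark points at 18 h mark the 2 genes that were not called, Cxcl9, which spans 8.02 to 11.49, and Adgre1.

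Stromal genes rose in some cases. Of 22 matrix proteases and inhibitors 6 were higher and 0 lower. Mmp2, a gelatinase of fibroblasts, read 9.36, 9.11, 9.83, 8.93 and 9.73 at 0 h and 10.47, 10.27, 9.96, 9.97 and 10.17 at 18 h, a rise of 0.78 ± 0.15, the stromelysin Mmp3 rose by 0.58 ± 0.15, and Mmp12, the macrophage elastase, by 0.72 ± 0.19. Sfrp2, a secreted modulator of Wnt signalling, rose by 0.97 ± 0.20. Fibroblast and matrix markers were higher in 2 of 12 cases, a count of 5 without array 3 or 23 and of 1 without array 2, 4, 5, 21, 22, 24 or 25, with the proteoglycan Dcn at 0.39 ± 0.092, and the collagen chain Col1a1 did not pass (0.30 ± 0.11). The mean of these markers ranged from -0.31 to 0.09 at 0 h and from -0.05 to 0.26 at 18 h. Endothelial markers were higher in 5 of 12 cases, and in 3 without array 1, 2, 4, 21 or 22. Vwf rose by 0.29 ± 0.07 and the junction protein Cldn5 by 0.29 ± 0.058. Mast cell and eosinophil markers were higher in 3 of 11 cases, with the IgE receptor chain Fcer1a at 0.42 ± 0.10 and the tryptase Tpsb2 at 0.30 ± 0.077. Single genes rose among the markers of B and plasma cells (Cd79b, 0.50 ± 0.071, 1 of 7) and adipocytes (Fabp4, 0.57 ± 0.13, 1 of 7).

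Markers of dendritic cells (8 tested), skeletal muscle (10) and keratinocytes (10) had 0 members called in limma, and 0 at an unadjusted p under 0.05, while 1 keratinocyte marker was called when only the 10 arrays were fitted. Means of the muscle list spread from -0.49 to 0.73 over the 0 h arrays and from -0.53 to 0.26 at 18 h, and those of the keratinocyte list from -0.31 to 0.41 and from -0.23 to 0.36, so both lists spread widely within each group. Of 29 hypoxia and glycolysis genes 1 was higher (Epas1, 0.32 ± 0.09) and 1 lower (Pfkp, -0.26 ± 0.062; 2 and 3 without arrays 4 and 25), or 3.45% in each direction. Of 23 type 2 and other cytokine genes 0 were called in limma (4 at an unadjusted p under 0.05), and of 1194 olfactory and vomeronasal receptors 3 were higher (0.251%) and 8 lower (0.670%). The 3 became 14 without array 24, 5 without array 2 or 5, and 1 without array 1 or 21.

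Several other genes among the largest falls belong to none of the groups above. Slc39a10, a zinc importer, read 10.47, 10.44, 10.51, 10.55 and 10.38 at 0 h and 10.13, 9.72, 9.80, 9.82 and 10.03 at 18 h, a fall of 0.57 ± 0.082 (adjusted p = 2.23e-05). Trmt10a, a tRNA methyltransferase, fell by 0.61 ± 0.076, the exonuclease Exd2 by 0.62 ± 0.095, and Zic5, a zinc finger factor, by 0.61 ± 0.07, a call lost with its lowest row. The lowest change of all separated genes was that of the receptor pseudogene Olfr1372-ps1, which read 8.26, 7.62, 8.14, 8.42 and 7.32 and then 6.56, 6.56, 6.34, 6.59 and 6.74 (-1.40 ± 0.25). The unnamed 0610010K14Rik (-0.55 ± 0.054) and Gm10589 (-0.55 ± 0.079) fell as well. Clock genes were lower in 4 of 17 cases (23.5%, against 20.4% of the 3988 genes with the highest level) and higher in 1. Ciart, a repressor of the clock, read 8.28, 8.66, 7.86, 8.14 and 8.41 and then 7.49, 7.75, 7.69, 7.60 and 7.81, a fall of 0.60 ± 0.11, Nr1d1 fell by 0.24 ± 0.061, a call lost when only the 10 arrays were fitted, and Tef rose by 0.29 ± 0.056. The hours of the day at which tumours were taken are not given, and time of day cannot be told apart from time after the drug. Fkbp5, a glucocorticoid target, fell by 0.25 ± 0.046. In lipid synthesis 6 of 32 genes were lower (18.8%, against 20.4% of the 3988 genes with the highest level) and 1 higher. The 6 became 3 without array 4, and the 1 became 0 without array 2, 3, 5, 21, 22, 23 or 24. Insig1, the sterol sensor partner, changed by -0.43 ± 0.085 and the desaturase Scd2 by -0.34 ± 0.065. Among 57 small nucleolar RNAs and their host genes 6 were higher (10.5%, against 6.18% of all genes) and 8 lower (14%, against 7.94%). The 8 of this list became 3 or 4 without array 1, 4, 21, 22 or 23. Snora44 had the largest change, 1.38 ± 0.31, but it read 9.15, 9.70, 10.34, 9.56 and 11.20 at 0 h and 11.63, 10.91, 11.60, 11.40 and 11.29 at 18 h, so its groups overlapped.

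The 6 h tumours show which of these changes were already present. Against the same 0 h arrays, 222 genes (1.11%) were called at 6 h, 139 higher (0.697%) and 83 lower (0.416%). Since both comparisons share the 0 h arrays, their values are set side by side only. Of the 47 p53 targets 19 were higher at 6 h. Mdm2 had changed by 0.58 at 6 h and 0.65 at 18 h, Apaf1 by 0.55 and 0.53, Ddias by 1.08 and 1.10, and Slc19a2 by 0.73 and 0.72. Histones had 6 of 26 members lower at 6 h, with H2ac4 at -0.53 and then -1.20. The median change of ribosome biogenesis genes was -0.007 at 6 h and -0.132 at 18 h, that of tRNA synthetases -0.051 and -0.212, and that of lysosomal genes 0.005 and 0.190.

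The change after 6 h was tested directly between the 18 h and 6 h arrays, where 1910 genes (9.58%) were called, 623 higher (3.12%) and 1287 lower (6.46%). The count was 1086 without array 21 and 1072 without array 23. In this test 18 of 26 histone genes, 16 of 50 ribosome biogenesis genes, 19 of 47 DNA replication genes and 15 of 46 splicing factors were lower at 18 h, and 10 of 28 lysosomal genes were higher. H2bc3 (adjusted p = 0.000541), Shmt2 (0.000539), Cars (0.000304) and Fbxo5 (0.000304) were among the genes lower at 18 h than at 6 h. Of the p53 targets 6 of 47 were higher and 1 was lower. Cd80 (adjusted p = 0.0235) and Ephx1 (0.0025) were among these 6. Outside that list, Mdm4 (0.00146) and Ankk1 (0.0123) were also higher at 18 h than at 6 h. For Mdm2 (0.615), Trp53inp1 (0.502), Apaf1 (0.891) and Ddias (0.953) the difference between 6 and 18 h did not pass. The same holds for Il1b (0.531) and Fos (0.84), whereas Icam1 (0.00199), Bst2 (9.1e-05) and Chil3 (0.0269) were higher at 18 h. Plk1 (0.0935) and Cenpf (0.99) did not pass, and their changes from 0 to 6 h were -0.35 and -0.32. Of 37 mitosis genes 8 were lower and 0 higher at 6 h against 0 h. At 18 h against 6 h, 5 of the 37 were higher and 5 lower.

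Mice given antibiotics served as the contrast for the 18 h change. In them 244 genes (1.22%) were called between 0 and 18 h, 63 higher (0.316%) and 181 lower (0.908%). The test of the difference in change between the 2 kinds of mice called 21 genes (0.105%), 9 with a change more positive in antibiotic mice (0.0451%) and 12 more negative (0.0602%), a total that was 6, 11, 2, 3 and 72 without arrays 1, 2, 4, 23 and 25. Of the 213 genes examined singly 6 were among the 21. Slc39a10, which fell by 0.57 in water mice, changed by 0.25 in antibiotic mice (adjusted p of the difference = 0.00143). Sesn2 changed by 0.84 and -0.25 (0.0421), Insig1 by -0.43 and 0.20 (0.0227), Trmt10a by -0.61 and -0.043 (0.0227), Hsph1 by -0.39 and 0.075 (0.0227), and Wee1 by -0.34 and 0.0089 (0.0227). The Slc39a10 call held in all 10 fits without 1 water array (adjusted p up to 0.00539). The calls of Insig1, Hsph1 and Wee1 held in 7 of the 10, that of Trmt10a in 5 and that of Sesn2 in 1, and all 5 were lost without array 4 or 23 and with array medians subtracted. Sesn2 was the 1 of 47 p53 targets that passed. The median change of p53 targets was 0.380 in water and 0.126 in antibiotic mice, that of histones -0.508 and -0.197, and that of tRNA synthetases -0.212 and -0.205, and these medians were not tested against each other. For the amino acid genes the changes in water and antibiotic mice were -1.20 and -1.29 for Chac1, -0.98 and -0.93 for Slc1a4 and -0.65 and -0.65 for Gpt2, and none of the 3 differences in change passed (adjusted p = 0.982, 0.982 and 0.999).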

How the data were processed

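Microarray values of whole EL4 tumours were used as deposited, as log2 values per probe set, in the table that holds the authors' processed values. Partek 6.6 is named in the submitters' processing notes, and the summarisation and normalisation are not given in the sources used here. Of 28853 rows, 21775 had 1 gene symbol in the platform annotation, and the row with the highest mean over all arrays was kept for each of 19938 genes. Rows with several symbols (1578) or none (5500) were left out. Means of the 6 groups were fitted over 30 arrays by moderated linear models, with 24 residual degrees of freedom (limma 3.58.1, run under R 4.3.3), and p-values were adjusted by Benjamini-Hochberg over all genes. Changes are differences of means with the fit's standard error (SE). In simulated data for the 18 h against 0 h comparison, 200 of 19938 genes were shifted, with independent normal noise. Of genes shifted by 0.5 and by 1, 88% and 100% were recovered, and 10 other genes were called falsely (5.05% of the calls). Shifts as small as most calls here, correlated genes and array effects were not simulated, so the recovery of such calls is not known. Genes were named if among the 30 largest rises or falls of called genes whose arrays did not overlap, or as members of gene lists by role. Examples from lists were mostly those whose call held with each array left out. The comparison, members and lists were chosen with earlier results of these data known. Genes absent from the rows kept were not analysed here. The number of arrays limits the precision. Alternatives changed the arrays fitted, the scaling, the filter on low values, the fold threshold, the variance prior, array weights, the row per gene and the arrays left out.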

Additional observations from a re-analysis of the deposited data

Results flagged for a closer look

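In 426 groups of 5 arrays (0 h and 18 h of the 213 genes), 15 held 1 array far from the other 4, where about 21 are expected at 1 in 20. At 18 h Gadd45a was highest on array 23 (8.46, others 8.28 to 8.29) and Mthfd2 on array 22 (10.81, others 10.53 to 10.60). The lowest single values at 18 h were those of H3c7 (4.10 on array 22, others 4.37 to 4.46), Eif4ebp2 (10.22 on array 22, others 10.35 to 10.39), Pold2 (10.66 on array 25, others 10.80 to 10.86) and Polr3g (8.08 on array 21, others 8.55 to 8.65).

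At 0 h array 3 stood high for Ankk1 (7.64, others 7.22 to 7.34), Rbl2 (9.27, others 8.96 to 9.04) and Cyba (10.46, others 10.35 to 10.38). Array 2 stood high for Slc6a9 (10.28, others 9.90 to 10.00) and low for Plk1 (11.35, others 11.41 to 11.44) and Fkbp5 (9.52, others 9.60 to 9.62). Array 5 was low for Sf3a2 (10.49, others 10.58 to 10.60) and Gm10589 (9.61, others 9.83 to 9.86), and array 4 for Vcam1 (7.16, others 7.28 to 7.32).

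The interaction term called the 18 h change of 6 named genes as different between antibiotic and water mice. The call of Slc39a10 held without each of the 10 water arrays, and those of the other 5 were lost without array 4 or 23. The difference, antibiotic minus water, was -1.09 for Sesn2 (-0.25 against 0.84), 0.82 for Slc39a10 (0.25 against -0.57) and 0.64 for Insig1 (0.20 against -0.43). It was 0.57 for Trmt10a (-0.04 against -0.61), 0.47 for Hsph1 (0.07 against -0.39) and 0.35 for Wee1 (0.01 against -0.34).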

How the results depend on the processing

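Of 191 called genes with single values, 72 had a change of at least 1.5-fold, 17 were not in the fit of genes above the median level, and 12 lost the call in at least 1 other alternative. Many were named because their call held with each array left out, so these counts do not describe the 2816 calls. Among uncalled genes, 4 were called under an alternative and 2 changed direction: Pcna (0.0088 with array weights) and Adgre1 (0.0071 after quantile normalisation, and from -0.091 to 0.0568 with 1 array left out). The cause of these shifts was not tested.

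The 2816 calls between 0 and 18 h became 124 (99 higher, 25 lower) with a change of at least 1.5-fold required, and the 1583 lower calls became 1031 when only the 10 arrays were fitted. With 1 array left out they ranged from 2089 to 2732 (930 to 1265 higher, 1159 to 1605 lower). The 1910 calls between 6 and 18 h became 21 at 1.5-fold, 3565 with array weights, and 1072 to 2060 with 1 array left out. The 21 interaction calls became 6 with array medians subtracted, 121 with array weights, 111 with genes above the median level and 111 after quantile normalisation, 67 with a trend and robust prior, 5 at 1.5-fold, and 2 to 72 with 1 array left out.

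At 1.5-fold, 16 p53 targets were higher and 7 histones, 2 integrated stress response genes, 2 amino acid transporters, 1 synthesis gene, 1 tRNA synthetase, 0 ribosome biogenesis, 0 splicing and 0 mitosis genes lower. In the same setting 4 inflammatory, 1 lysosomal and 0 endothelial genes were higher. When only the 10 arrays were fitted, 14 ribosome biogenesis and 11 splicing genes were lower. With array medians subtracted, 7 lysosomal genes were higher. With 1 array left out, the higher counts ranged from 25 to 28 for p53 targets, 6 to 9 for inflammatory, 3 to 5 for endothelial and 6 to 13 for lysosomal genes. The lower counts ranged from 23 to 23 for histones, 8 to 9 for the integrated stress response, 7 to 9 for transporters, 9 to 9 for synthesis, 9 to 12 for tRNA synthetases, 19 to 24 for ribosome biogenesis, 13 to 15 for splicing and 12 to 16 for mitosis. An ordinary linear model, chosen after seeing the data, gave 2927 calls.

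No paired analysis was possible because the sample numbers run from 1 to 30 over the groups and no number is shared between them.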
